A study of Mus musculus with 9 samples.

Results

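Bcl6, a transcriptional repressor of the BTB zinc finger family, and 9 genes of growth hormone and STAT5 signalling were followed in mouse liver: Cish, Socs2, Socs3, Stat5a, Stat5b, Ghr, Jak2, Egfr and Cux2. The 10 genes were taken by their names from a table of 35275 entries, and 9 of them were among the 13151 genes that passed the filter on low counts. Cux2 did not pass it. Bcl6 was chosen by its fall in AdipoRonPEG5 livers against vehicle livers, so its values are a description in every comparison, and those of all 10 genes are a description in that one, with no p-value given. The other 8 genes that passed the filter were tested in AdipoRon against vehicle and in AdipoRonPEG5 against AdipoRon.

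Growth hormone reaches the liver in pulses in male rodents and more steadily in females. It binds its receptor Ghr on hepatocytes, the receptor-bound kinase Jak2 phosphorylates Stat5a and Stat5b, and these enter the nucleus and activate genes such as Igf1, Cish and Socs2. The products of Cish and Socs2 feed back to damp the receptor. BCL6 binds many of the same DNA sites as STAT5 and represses there, and in mouse liver Bcl6 is itself repressed by growth hormone and is higher in males, while Cux2 is a STAT5-regulated gene of female liver.

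The libraries came from livers of C57BL/6 mice in 3 groups of 3: AdipoRonPEG5, a PEGylated analog of AdipoRon, then AdipoRon, a small molecule that activates adiponectin receptors, and vehicle (PBS). The labels used here give no sex, age or diet and do not say whether the mice were insulinopenic. Injections were given 2 times a day over 5 days, and the labels state 5 mg/kg in a sentence that covers the vehicle too, so it is uncertain what dose each compound had. The study asked how the compounds affect the liver, and each pair of groups was compared here. Any 2 of the 3 comparisons share the libraries of 1 group, so agreement between them is not independent.

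STAT5 dimers bind the sequence TTCNNNGAA, where N is any base. The stretches below are shown because they carry every match to it in the promoter windows of the 10 genes, and Cish and Bcl6 hold 6 of the 7 matches. Windows run from 250 bases before to 50 bases after each transcription start in RefSeq (GRCm38.p6), and 9 of the 10 genes matched, all but Socs2, with 14 windows. The motif reads the same on both strands, no matches overlapped, and capitals mark it.
Cish, chr9:107296559-107296678, plus strand: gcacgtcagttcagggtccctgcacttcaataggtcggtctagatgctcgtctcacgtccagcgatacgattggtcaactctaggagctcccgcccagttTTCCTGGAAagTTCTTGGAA
Bcl6, first start, chr16:23988853-23989002, minus strand: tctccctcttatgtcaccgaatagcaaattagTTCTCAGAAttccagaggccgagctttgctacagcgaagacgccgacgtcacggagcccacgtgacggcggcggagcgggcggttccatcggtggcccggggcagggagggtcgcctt
Bcl6, second start, chr16:23981334-23981483, minus strand: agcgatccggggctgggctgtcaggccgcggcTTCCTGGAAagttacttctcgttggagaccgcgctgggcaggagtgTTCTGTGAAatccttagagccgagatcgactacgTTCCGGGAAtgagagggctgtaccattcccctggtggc
Socs3, chr11:117969462-117969570, minus strand: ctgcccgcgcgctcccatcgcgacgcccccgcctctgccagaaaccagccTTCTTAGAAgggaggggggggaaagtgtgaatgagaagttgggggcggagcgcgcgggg

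The window of Cish held 2 matches, that of the first Bcl6 start held 1, that of the second Bcl6 start held 3, and that of Socs3 held 1. Among all 32851 windows of this length, 8.3% held at least 1 match, 0.457% held 2 or more and 0.0335% held 3 or more. The other 10 windows had no match, which says only that these letters are not in them. A match is a description of the sequence and not evidence of binding.

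Total counts ran from 13942322 to 18508950 in 8 libraries, and vehicle 1 had 39473195. Xist, the RNA of the inactive X chromosome, was at 0.308 CPM or less in every library, and the Y-linked gene Ddx3y was at 48.3 to 68.2 CPM, so all 9 libraries carried male transcripts. Of the 5 sex chromosome genes, 4 passed the filter, with a median log2 fold change of -0.18 in AdipoRonPEG5 against vehicle livers, -0.13 in AdipoRon against vehicle livers and -0.086 in AdipoRonPEG5 against AdipoRon livers. Ddx3y was lower in AdipoRonPEG5 livers than in vehicle livers (log2 fold change -0.26 with a standard error of 0.078, edgeR Benjamini-Hochberg (BH) adjusted p = 0.0409) and than in AdipoRon livers (-0.30 ± 0.078, adjusted p = 0.0482). Eif2s3y, Kdm5d and Uty, also Y-linked, did not pass in either comparison, and the Ddx3y calls were not followed over other settings of the fit. The summed level of 7 hepatocyte markers was 75350 to 83734 CPM in AdipoRonPEG5 livers, 68895 to 77635 CPM in AdipoRon livers and 78847 to 91301 CPM in vehicle livers, and no marker was at 0. Of these 7 markers, 4 fell in AdipoRonPEG5 against vehicle livers (median log2 fold change -0.43). Among all genes tested, 7.63% were lower there at an edgeR BH-adjusted p under 0.05.

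Levels per transcript length were compared with the FPKM the authors deposited. In vehicle livers the growth hormone receptor Ghr had 156 ± 24.5 FPKM and the epidermal growth factor receptor Egfr 66.0 ± 30.8 FPKM (SD, n = 3 here and below). Bcl6 followed at 26.0 ± 0.643 FPKM and Stat5b at 10.6 ± 1.05 FPKM. Socs3, at 3.70 ± 2.79 FPKM, overlapped with Stat5a at 3.08 ± 0.476 FPKM, and Stat5a overlapped with Jak2 at 2.48 ± 0.395 FPKM. Below them came Socs2 at 1.20 ± 0.518 FPKM, Cish at 0.457 ± 0.274 FPKM and Cux2 at 0.025 ± 0.023 FPKM. Apart from the overlaps of Stat5a with its neighbours, no gene overlapped the next one in this order over the 3 vehicle libraries. In AdipoRonPEG5 livers the level of Bcl6 was 3.78 ± 0.806 FPKM and that of Cish 4.20 ± 0.785 FPKM, whereas in vehicle livers Bcl6 stood far above Cish.

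Bcl6 itself was at 18.0, 13.9 and 12.1 CPM (TMM-scaled) in the AdipoRonPEG5 livers, at 52.1, 25.6 and 23.8 CPM in the AdipoRon livers and at 103, 105 and 113 CPM in the vehicle livers. The 3 groups did not overlap, and AdipoRon 1 stood between the other AdipoRon livers and the vehicle livers. The log2 fold change that Bcl6 was selected on was -2.87 ± 0.27 (SE), and it lay between -3.04 and -2.76 over 18 other settings. In AdipoRon against vehicle livers its log2 fold change was -1.66 ± 0.25, and -2.12 without AdipoRon 1. Between the compounds it was -1.21 ± 0.26, with a value of -0.76 without AdipoRon 1. In whole liver, fewer cells of a type and less RNA per cell cannot be told apart, here and in every result that follows. A RefSeq RNA gene, Gm31527, overlaps Bcl6, and whether counting used strand is not stated.

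**Figure D1:**
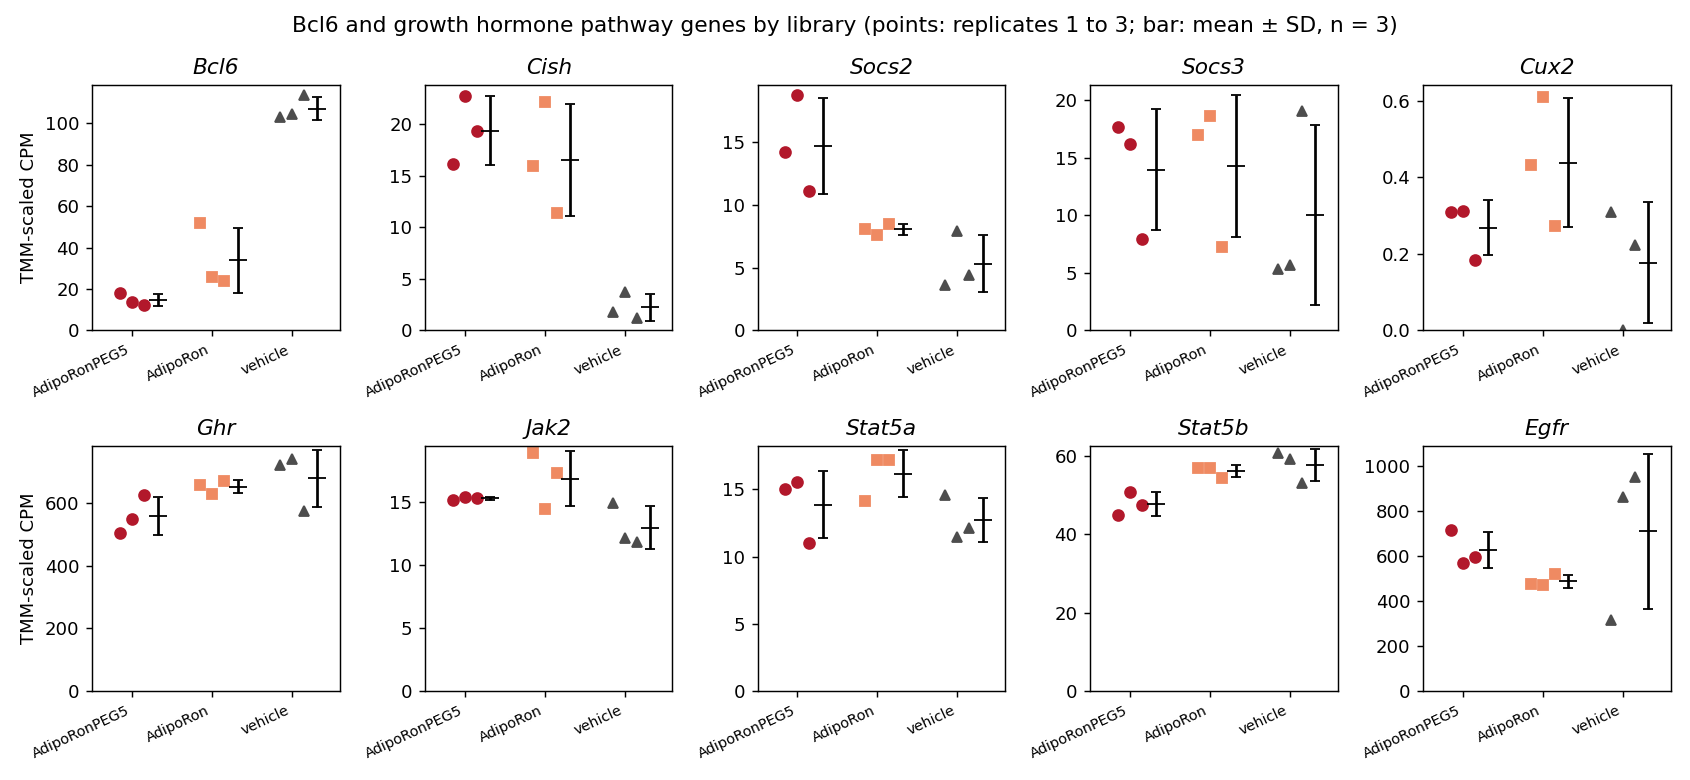
TMM-scaled CPM (vertical axes, linear from 0) of the 10 genes in AdipoRonPEG5, AdipoRon and vehicle livers; points are libraries 1 to 3 of each group from left to right and the bars beside them mean ± SD (n = 3). Bcl6 falls into 3 separate groups, Cish is low in the vehicle livers alone, and single vehicle libraries stand apart for Socs3 (19.0 CPM) and Egfr (317 CPM).

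Feedback inhibitors of the growth hormone receptor were higher in treated livers, Cish with both compounds and Socs2 with AdipoRonPEG5. Cish, which encodes an SH2 protein that blocks STAT5 docking to the receptor, was at 16.1, 22.7 and 19.4 CPM in AdipoRonPEG5 livers, at 15.9, 22.2 and 11.4 CPM in AdipoRon livers and at 1.77, 3.74 and 1.19 CPM in vehicle livers. All 6 treated livers were above all 3 vehicle livers, and the livers of the 2 compounds overlapped. With AdipoRonPEG5 its log2 fold change against vehicle was 3.18 ± 0.34. In AdipoRon livers Cish rose against vehicle (log2 fold change 2.95 ± 0.34, edgeR BH-adjusted p = 0.00229). This call held in all 18 alternatives, with adjusted p between 1.06e-08 and 0.0184. Between the compounds the log2 difference of Cish was 0.23, with a 95% interval from -0.39 to 0.85 (adjusted p = 0.697).

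Socs2 encodes a ligase adaptor that targets the growth hormone receptor for degradation. It was at 14.2, 18.7 and 11.1 CPM in AdipoRonPEG5 livers, at 8.08, 7.55 and 8.47 CPM in AdipoRon livers and at 3.62, 7.92 and 4.39 CPM in vehicle livers. The AdipoRonPEG5 livers stood above all others, while vehicle 2 lay within the range of the AdipoRon livers. The log2 fold change was 1.52 ± 0.27 in AdipoRonPEG5 against vehicle livers. It was 0.65 ± 0.28 in AdipoRon against vehicle livers (edgeR BH-adjusted p = 0.202), and 0.38 without vehicle 1 (adjusted p = 0.477) and 1.02 without vehicle 2 (adjusted p = 0.0559). Between the compounds it was 0.87 (95% interval 0.30 to 1.45, adjusted p = 0.0791), which missed the threshold of 0.05. That difference passed with no filter on low counts, with only the 2 compared groups fitted, with DESeq2, without vehicle 1 and without vehicle 2 (adjusted p from 0.0150 to 0.0469). Its adjusted p lay between 0.0150 and 0.254 over all 18 alternatives.

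Socs3, an inhibitor induced mainly by interleukin-6 and STAT3 in liver, varied within each group. It was at 17.7, 16.2 and 7.95 CPM in AdipoRonPEG5 livers, at 17.0, 18.6 and 7.24 CPM in AdipoRon livers and at 5.30, 5.68 and 19.0 CPM in vehicle livers. Vehicle 3 had the highest value of all 9, and the third liver of each treated group lay close to the other vehicle livers. The log2 fold change was 0.53 ± 0.50 in AdipoRonPEG5 against vehicle livers, and 0.17 without vehicle 1, 0.27 without vehicle 2 and 1.36 without vehicle 3. Against vehicle, AdipoRon gave 0.57 ± 0.50 (edgeR BH-adjusted p = 0.552), and 0.21 without vehicle 1, 0.31 without vehicle 2 and 1.39 without vehicle 3 (adjusted p = 0.0761 for the last). Between the compounds it was -0.038, with a 95% interval from -1.12 to 1.04 (adjusted p = 0.976). The acute phase gene Saa1, chosen after its values were seen, was also highest in vehicle 3. Within each treated group Saa1 had the same order of livers as Socs3 but not differences of like size. It was at 1952, 207 and 173 CPM in AdipoRonPEG5 livers, at 152, 497 and 140 CPM in AdipoRon livers and at 45.4, 45.1 and 4959 CPM in vehicle livers, and its part in the result was not tested.

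**Figure D2:**
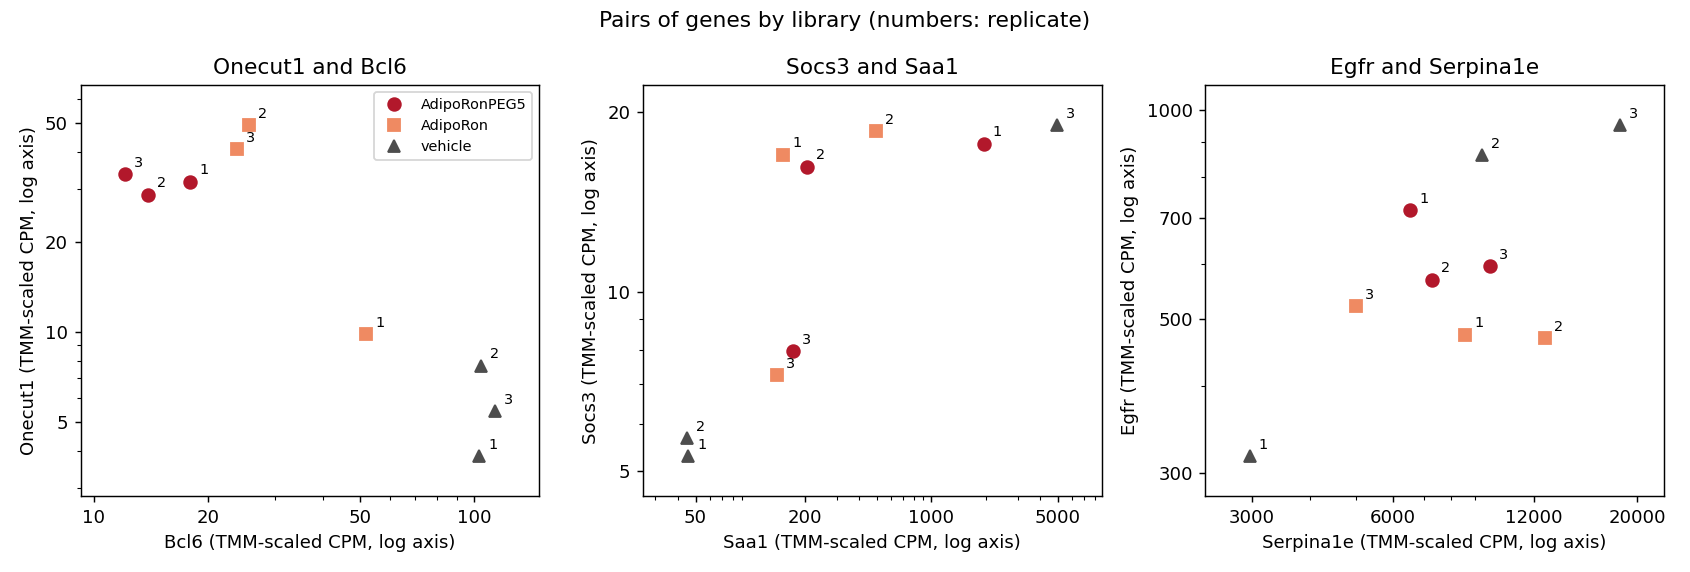
TMM-scaled CPM of 3 pairs of genes in each of the 9 libraries, on log axes, with replicate numbers beside the points: Onecut1 against Bcl6, Socs3 against Saa1 and Egfr against Serpina1e. AdipoRon 1 lies between its group and the vehicle livers for Bcl6 (52.1 CPM) and Onecut1 (9.81 CPM), vehicle 3 is highest for Socs3 and Saa1, and vehicle 1 is lowest for Egfr and Serpina1e.

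Receptor, kinase and STAT5 transcripts differed less. Ghr was at 506, 549 and 624 CPM in AdipoRonPEG5 livers, at 657, 630.0 and 670 CPM in AdipoRon livers and at 721, 741 and 575 CPM in vehicle livers. All AdipoRonPEG5 livers lay below all AdipoRon livers, and vehicle 3 lay within the AdipoRonPEG5 range. The log2 fold change was -0.28 ± 0.12 in AdipoRonPEG5 against vehicle livers, and -0.39 without vehicle 3. It was -0.058 in AdipoRon against vehicle livers (95% interval -0.31 to 0.20, edgeR BH-adjusted p = 0.818), a sign that turned without vehicle 2 (0.0021) and with total-count scaling (0.039). Between the compounds it was -0.22 (95% interval -0.48 to 0.033, adjusted p = 0.299).

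Jak2, the kinase of the receptor, was at 15.2, 15.4 and 15.4 CPM in AdipoRonPEG5 livers, at 18.9, 14.5 and 17.3 CPM in AdipoRon livers and at 14.9, 12.2 and 11.8 CPM in vehicle livers. Its log2 fold change was 0.22 ± 0.12 in AdipoRonPEG5 against vehicle livers, which did not overlap. Against vehicle, AdipoRon gave 0.36 (95% interval 0.090 to 0.64, edgeR BH-adjusted p = 0.117) and between the compounds -0.14 (95% interval -0.41 to 0.13, adjusted p = 0.564). Neither difference passed, and the AdipoRon livers overlapped with both other groups.

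Stat5b, the more abundant of the 2 STAT5 genes here, was at 44.8, 50.8 and 47.5 CPM in AdipoRonPEG5 livers, at 56.8, 57.0 and 54.3 CPM in AdipoRon livers and at 60.6, 59.3 and 53.0 CPM in vehicle livers. The AdipoRonPEG5 livers lay below all the others. The log2 fold change was -0.27 ± 0.077 in AdipoRonPEG5 against vehicle livers and between -0.33 and -0.19 over the alternatives. With AdipoRon against vehicle it was -0.043 (95% interval -0.21 to 0.13, edgeR BH-adjusted p = 0.799), and 0.056 with total-count scaling. Between the compounds it was -0.23 (95% interval -0.40 to -0.060, adjusted p = 0.113).

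Stat5a was at 14.99, 15.6 and 11.0 CPM in AdipoRonPEG5 livers, at 14.1, 17.2 and 17.2 CPM in AdipoRon livers and at 14.6, 11.4 and 12.1 CPM in vehicle livers, with overlap between all groups. Its log2 fold change was 0.11 ± 0.15 in AdipoRonPEG5 against vehicle livers. It was 0.33 in AdipoRon against vehicle livers (95% interval -0.0004 to 0.66, edgeR BH-adjusted p = 0.228) and -0.22 between the compounds (95% interval -0.55 to 0.11, adjusted p = 0.441). Stat5a and Stat5b are neighbouring, closely related genes, and the treatment of reads that match both is not stated.

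Egfr, a receptor whose liver expression growth hormone is known to raise, was at 717, 570 and 596 CPM in AdipoRonPEG5 livers, at 475, 469 and 522 CPM in AdipoRon livers and at 317, 861 and 952 CPM in vehicle livers. Vehicle 1 was the lowest of all 9 livers and the other vehicle livers were the highest. The log2 fold change was -0.18 ± 0.30 in AdipoRonPEG5 against vehicle livers, -0.54 without vehicle 1 and 0.091 without vehicle 3. AdipoRon against vehicle gave -0.54 (95% interval -1.21 to 0.13, edgeR BH-adjusted p = 0.332), and -0.90 without vehicle 1, where it passed (adjusted p = 0.0168). Between the compounds the log2 difference was 0.36 (95% interval -0.31 to 1.03, adjusted p = 0.537), with all AdipoRonPEG5 livers above all AdipoRon livers. All 3 vehicle livers differed from each other in some sex-biased genes chosen after their values were seen. In vehicle 1, 2 and 3 the male-biased Selenbp2 was at 205, 993 and 2635 CPM and Serpina1e at 2969, 9321 and 18320 CPM. The female-biased Cyp2b9 was at 42.7, 6.73 and 0.074 CPM. Other male-biased genes set vehicle 3 apart (Moxd1 at 0.026, 0 and 93.0 CPM) or differed less (Elovl3 at 59.2, 60.9 and 71.4 CPM). The part of these differences in the Egfr result was not tested.

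Cux2, a repressor of male-biased genes in female mouse liver, was barely detected. It had 5, 6 and 3 counts in AdipoRonPEG5 livers, 7, 11 and 4 counts in AdipoRon livers and 12, 0 and 3 counts in vehicle livers. No level was above 0.611 CPM, and the limit that a count of 0 allows in vehicle 2, 3 counts on the same TMM scale, is 0.224 CPM, counting error only. No difference in Cux2 could be detected at this depth.

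In AdipoRonPEG5 against vehicle livers 17.2% of all genes tested were called, that is, had an edgeR BH-adjusted p under 0.05, 9.55% higher and 7.63% lower. Of the 9 genes that passed the filter 4 lay past that threshold, a count from which nothing is read, since the selection used this contrast. In AdipoRon against vehicle livers 5.2% of all genes tested were called, 3.8% higher and 1.4% lower, and Cish was the 1 gene called of the 8 tested. Between the compounds 5.39% were called, 2.68% higher in AdipoRonPEG5 livers and 2.71% lower, and edgeR called 0 of the 8. Of these 8, 2 had an unadjusted p under 0.05 (Socs2 and Stat5b), DESeq2 called 1 and limma-voom called 0. With total-count scaling in place of TMM, the higher genes made up 74.4% rather than 55.6% of all calls in AdipoRonPEG5 against vehicle livers and 93.2% rather than 73.1% in AdipoRon against vehicle livers.

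**Figure D3:**
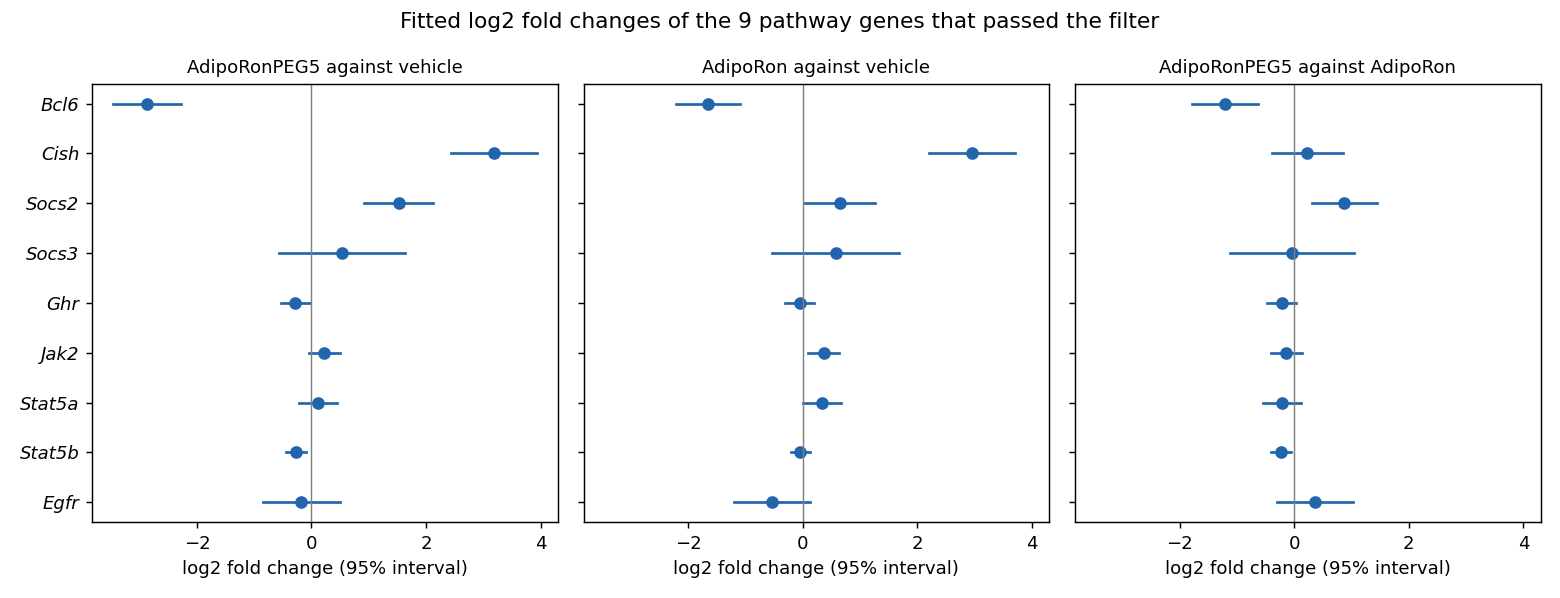
Log2 fold changes (points) with 95% intervals (lines) of the 9 genes that passed the filter, from 1 edgeR fit of all 9 libraries, with 1 panel for each of the 3 comparisons; 0 means no difference. Cish is at 3.18 and 2.95 against vehicle and 0.23 between the compounds, while Socs2 is at 1.52, 0.65 and 0.87.

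Other components of growth hormone and JAK-STAT signalling were called in both directions. Of 22 tested genes, which leave out the 10 above, 3 rose and 1 fell in AdipoRonPEG5 against vehicle livers. There 17.2% of all genes were called, so the count of the list lies near that share. The median log2 fold change was 0.055, against -0.0013 over all genes tested. Ptpn1, a phosphatase that acts on JAK2 and the insulin receptor, was at 35.3 ± 6.80 CPM in AdipoRonPEG5 livers and 26.1 ± 2.79 CPM in vehicle livers (log2 fold change 0.44 ± 0.13, edgeR BH-adjusted p = 0.0449). Its call ended in 9 alternatives (adjusted p from 0.0523 to 0.152), among them those without vehicle 1 or 2, AdipoRon 2 or 3, and AdipoRonPEG5 1 (log2 fold change 0.27) or 3. The gene that fell was Sh2b1, a JAK2 adaptor (-0.25, adjusted p = 0.0461), named because it is the 1 fall. The Sh2b1 call was not followed over the alternatives.

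Ptpn6, a phosphatase abundant in blood cells, rose with both compounds. It was at 24.9 ± 0.686 CPM in AdipoRonPEG5 livers, 24.6 ± 2.63 CPM in AdipoRon livers and 18.6 ± 1.79 CPM in vehicle livers. Its log2 fold change was 0.42 ± 0.10 with AdipoRonPEG5 (edgeR BH-adjusted p = 0.0162), a call that ended without vehicle 1, vehicle 2 or AdipoRonPEG5 1 (adjusted p from 0.0503 to 0.0654). With AdipoRon it was 0.41 ± 0.10 (adjusted p = 0.0443), and the call ended in 9 alternatives (adjusted p from 0.0636 to 0.145), among them without any 1 of the libraries other than vehicle 3 and AdipoRon 2. Ptpn6 was the 1 call of the 22 in that comparison, where 5.2% of all genes were called and their median was 0.12 against 0.0057 over all genes. Between the compounds, where 5.39% of all genes were called, edgeR, DESeq2 and limma-voom each called 0 of the 22. Of the 22, 4 had an unadjusted p under 0.05, and the median was -0.017 against -0.013 over all genes.

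Among 10 tested genes of the IGF1 complex and STAT5-dependent liver proteins, 1 rose and 2 fell in AdipoRonPEG5 against vehicle livers, with a median log2 fold change of -0.17. There 9.55% of all genes tested were called higher and 7.63% lower. Onecut1, a hepatocyte transcription factor that growth hormone induces through STAT5, was at 31.7, 28.7 and 33.7 CPM in AdipoRonPEG5 livers, at 9.81, 49.2 and 40.8 CPM in AdipoRon livers and at 3.83, 7.70 and 5.43 CPM in vehicle livers. All treated livers were above all vehicle livers, with AdipoRon 1 nearest to them. Onecut1 rose with AdipoRonPEG5 (log2 fold change 2.54 ± 0.48, edgeR BH-adjusted p = 0.00572), and also in AdipoRon livers (2.63 ± 0.48, adjusted p = 0.0138). The call with AdipoRon ended without vehicle 1 and with only the 2 compared groups fitted (adjusted p from 0.0504 to 0.0608). It was the 1 call of the 10 with AdipoRon, where the median was -0.073 and 5.2% of all genes tested were called.

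Spry4, an inhibitor of receptor tyrosine kinase signalling, was at 6.45 ± 1.53 CPM in AdipoRonPEG5 livers, 18.6 ± 7.49 CPM in AdipoRon livers and 18.6 ± 2.07 CPM in vehicle livers. It fell with AdipoRonPEG5, against vehicle (log2 scale -1.52 ± 0.26, edgeR BH-adjusted p = 0.0033) and against AdipoRon (-1.52 ± 0.26, adjusted p = 0.0104), the 1 call of the 10 between the compounds, where the median was -0.095 and 5.39% of all genes tested were called. Igfbp2, an IGF-binding protein, fell with AdipoRonPEG5 against vehicle (-0.43 ± 0.12, adjusted p = 0.0285), a call that ended in 5 alternatives (adjusted p from 0.0717 to 0.118), among them without vehicle 2, AdipoRonPEG5 1 or AdipoRonPEG5 3. Igf1, the main hormone the liver makes in response to growth hormone, did not pass. It was at 446, 445 and 478 CPM in AdipoRonPEG5 livers, at 478, 473 and 519 CPM in AdipoRon livers and at 477, 591 and 552 CPM in vehicle livers (log2 fold change -0.24 and -0.14 against vehicle, adjusted p = 0.11 and 0.436).

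Sex-biased liver genes, many of which STAT5b controls, were called in both directions. Of 23 tested male-biased genes, 1 rose and 3 fell in AdipoRonPEG5 against vehicle livers (median log2 fold change -0.18), 1 rose with AdipoRon (0.078) and 1 fell between the compounds (-0.21), and the others did not pass. Over all genes tested, 17.2%, 5.2% and 5.39% were called in these comparisons, so the counts of the list lie near those shares. Cyp4a12a, a fatty acid hydroxylase of male liver, was at 146, 192 and 234 CPM in AdipoRonPEG5 livers, at 118, 156 and 124 CPM in AdipoRon livers and at 73.0, 90.1 and 79.4 CPM in vehicle livers. It rose with AdipoRonPEG5 (1.24 ± 0.16, edgeR BH-adjusted p = 0.00096), and also in AdipoRon livers (0.72 ± 0.16, adjusted p = 0.032). The call with AdipoRon ended without any 1 of the vehicle libraries, AdipoRon 2, AdipoRon 3 or AdipoRonPEG5 2 (adjusted p from 0.0557 to 0.103). The related Cyp4a12b, on the same list, did not pass with AdipoRonPEG5 (0.31 ± 0.22, adjusted p = 0.372) or AdipoRon (0.47 ± 0.22, adjusted p = 0.238). The treatment of reads that match both genes is not stated. Mup3, a major urinary protein, was at 7664 ± 353 CPM in AdipoRonPEG5 livers, 11329 ± 997 CPM in AdipoRon livers and 13462 ± 1744 CPM in vehicle livers. Mup3 fell with AdipoRonPEG5 against vehicle (-0.81 ± 0.12, adjusted p = 0.0018) and against AdipoRon (-0.56 ± 0.12, adjusted p = 0.0257), and the call against AdipoRon ended in 8 alternatives, among them without any 1 of the AdipoRonPEG5 or AdipoRon livers (adjusted p from 0.0513 to 0.101). Hsd3b5, a male-specific steroid dehydrogenase, fell with AdipoRonPEG5 against vehicle (-1.05 ± 0.27, adjusted p = 0.0226), and that call ended without vehicle 2, vehicle 3 or any 1 of the AdipoRonPEG5 livers (adjusted p from 0.0542 to 0.0762). Without vehicle 3 and AdipoRonPEG5 1 together the value of Hsd3b5 was -0.69 (adjusted p = 0.138).

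Of 27 female-biased genes, 13 passed the filter on low counts. In AdipoRonPEG5 against vehicle livers 1 rose and 2 fell, with a median log2 fold change of -0.18, where 9.55% of all genes were called higher and 7.63% lower. Cyp2a4, a steroid hydroxylase of female liver, was at 8.58, 34.7 and 4.25 CPM in AdipoRonPEG5 livers, at 0.062, 0.056 and 0.41 CPM in AdipoRon livers and at 0.257, 0.149 and 0.149 CPM in vehicle livers. AdipoRonPEG5 2 was highest and the AdipoRonPEG5 group stood above all other livers. Cyp2a4 rose with AdipoRonPEG5 against vehicle (6.21 ± 0.91, edgeR BH-adjusted p = 0.00165) and against AdipoRon (6.54 ± 0.98, adjusted p = 0.00582), the second call ending with limma-voom (adjusted p = 0.11). Cyp2a4 has close paralogs, and reads matching several of them may have been split. Its AdipoRon and vehicle levels rest on few counts, so the size of the fitted change is uncertain. Cyp2a4 passed the filter on low counts only through the AdipoRonPEG5 livers. A call could therefore hardly have gone the other way, and both calls of Cyp2a4 are a description. Cyp17a1, a steroidogenic enzyme, was at 5.48 ± 0.80 CPM in AdipoRonPEG5 livers and 21.8 ± 6.89 CPM in vehicle livers (-2.00 ± 0.37, adjusted p = 0.00484). Atp6v0d2, a subunit of the vacuolar proton pump, fell as well (-1.39 ± 0.34, adjusted p = 0.0183), a call that ended without AdipoRonPEG5 1 or 2 (adjusted p from 0.0612 to 0.0649), and without vehicle 3 and AdipoRonPEG5 1 together (0.0864). With AdipoRon, where 5.2% of all genes were called, edgeR called 0 of the 13, 1 had an unadjusted p under 0.05, DESeq2 called 1 and limma-voom called 0, with a median of -0.39. Between the compounds Cyp2a4 was the 1 call, with a median of -0.10, where 5.39% of all genes were called.

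**Figure D4:**
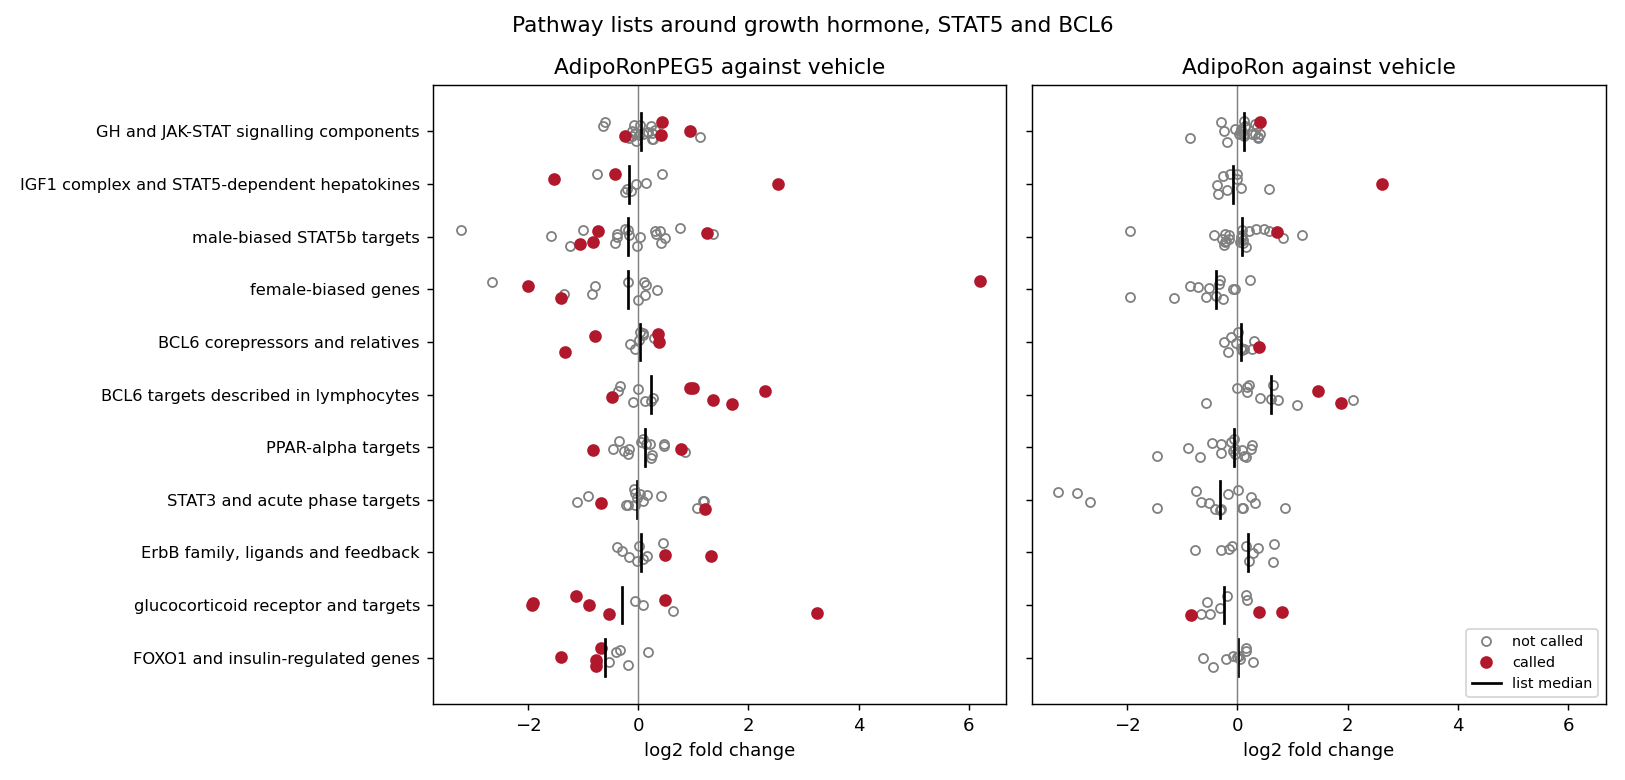
Log2 fold changes (horizontal axis) of the tested genes of 11 lists in AdipoRonPEG5 against vehicle livers (left) and AdipoRon against vehicle livers (right); red filled points passed at an adjusted p of 0.05, open points did not, and black bars are list medians. The lymphocyte targets of BCL6 hold 5 higher calls and 1 lower call on the left, and the FOXO1 list lies lowest there, at -0.60.

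Some genes that BCL6 is known to repress in lymphocytes were called. Of 13 tested, 5 rose and 1 fell in AdipoRonPEG5 against vehicle livers (median log2 fold change 0.24), where 9.55% of all genes were called higher and 7.63% lower. DESeq2 also called 6 of the 13 there and limma-voom called 4. With AdipoRon 2 rose (median 0.61), where 3.8% of all genes were called higher and 1.4% lower, and the others did not pass. Cd44, a hyaluronan receptor abundant on leukocytes, was at 11.0 ± 0.419 CPM in AdipoRonPEG5 livers, 12.3 ± 4.80 CPM in AdipoRon livers and 3.34 ± 0.116 CPM in vehicle livers. It rose with AdipoRonPEG5 (1.71 ± 0.24, edgeR BH-adjusted p = 0.00135), and also in AdipoRon livers (1.88 ± 0.24, adjusted p = 0.00322). Cxcl10, an interferon-induced chemokine, rose with AdipoRonPEG5 (1.37 ± 0.33, adjusted p = 0.0159), and also in AdipoRon livers (1.45 ± 0.33, adjusted p = 0.0298). The first call of Cxcl10 ended without vehicle 2, AdipoRonPEG5 1 or 3 (adjusted p from 0.0503 to 0.0524), and without vehicle 3 and AdipoRonPEG5 1 together (0.0838). The second ended in 5 alternatives (adjusted p from 0.0601 to 0.0925), among them without vehicle 2, vehicle 3 or AdipoRon 1. Between the compounds, where 2.71% of all genes were called lower, 2 of the 13 fell, with a median of -0.17. They were the survival gene Bcl2l1 (-0.65, adjusted p = 0.0305) and the cyclin gene Ccnd1 (-0.97, adjusted p = 0.0483), and each call ended without any 1 of the AdipoRonPEG5 livers (adjusted p up to 0.107 and 0.144 over the alternatives). The call of Bcl2l1 ended without AdipoRon 1 or AdipoRon 2 as well, and that of Ccnd1 without any 1 of the AdipoRon livers.

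Markers of macrophages and lymphocytes were called against vehicle as well, most of these calls being higher. All 12 tested macrophage and Kupffer cell markers rose in AdipoRonPEG5 against vehicle livers and 11 of them in AdipoRon against vehicle livers, where 9.55% and 3.8% of all genes were called higher. Their summed level was 781 to 790.4 CPM in AdipoRonPEG5 livers, 490.2 to 859 CPM in AdipoRon livers and 203 to 294 CPM in vehicle livers. Of 8 tested lymphocyte markers, 5 rose and 1 fell with AdipoRonPEG5 and 3 rose with AdipoRon, and the sum of all 11 markers was 19.9 to 20.9 CPM in AdipoRonPEG5 livers, 16.5 to 24.5 CPM in AdipoRon livers and 7.17 to 9.82 CPM in vehicle livers. Between the compounds, where 5.39% of all genes were called, edgeR and limma-voom called 0 of the 12 and 0 of the 8, and DESeq2 called 1 on each list. The medians there were 0.30 and 0.62. No macrophage or lymphocyte marker was at 0 throughout a group, and the part of these markers in the results on Cd44, Cxcl10, Ptpn6 and Bcl6 was not tested.

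BCL6 corepressors and related BTB zinc finger genes were split. Of 11 tested, 2 rose and 2 fell in AdipoRonPEG5 against vehicle livers (median log2 fold change 0.03), 1 rose with AdipoRon (0.057) and 1 fell between the compounds (-0.0088), and the others did not pass. The shares called over all genes tested were 17.2%, 5.2% and 5.39% in these comparisons. Zbtb16, a BTB zinc finger repressor, was at 27.9, 25.4 and 35.9 CPM in AdipoRonPEG5 livers, at 105, 75.5 and 50.2 CPM in AdipoRon livers and at 49.3, 107 and 67.6 CPM in vehicle livers. It fell with AdipoRonPEG5 against vehicle (-1.32 ± 0.30, edgeR BH-adjusted p = 0.0129), and without AdipoRonPEG5 2 this call ended (adjusted p = 0.0576). Against AdipoRon it fell as well (-1.38 ± 0.30, adjusted p = 0.0264), a call that ended in 7 alternatives, among them without AdipoRon 1, AdipoRon 2 or any 1 of the AdipoRonPEG5 livers (adjusted p from 0.0584 to 0.107). Zbtb20, a liver repressor of the same family, fell with AdipoRonPEG5 against vehicle (-0.79 ± 0.17, adjusted p = 0.0101). Zbtb7a rose with AdipoRonPEG5 (0.38 ± 0.086, adjusted p = 0.0137), and also in AdipoRon livers (0.38 ± 0.086, adjusted p = 0.0305). The first Zbtb7a call ended without vehicle 2, AdipoRonPEG5 2 or 3 (adjusted p from 0.053 to 0.0619), and the second in 7 alternatives (adjusted p from 0.0544 to 0.119), among them without vehicle 1, vehicle 2, AdipoRonPEG5 2 or any 1 of the AdipoRon livers.

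Glucocorticoid receptor targets, a second hormone-driven program of hepatocytes, were called in both directions. Of 10 glucocorticoid receptor and target genes, 2 rose and 5 fell in AdipoRonPEG5 against vehicle livers (median log2 fold change -0.29), where 9.55% of all genes were called higher and 7.63% lower, 2 rose and 1 fell with AdipoRon (-0.25), and 1 rose and 3 fell between the compounds (-0.33). In the last 2 comparisons 5.2% and 5.39% of all genes were called. Tsc22d3, a glucocorticoid-induced leucine zipper gene, was at 53.5, 66.4 and 98.1 CPM in AdipoRonPEG5 livers, at 161, 122 and 176 CPM in AdipoRon livers and at 235, 315 and 270 CPM in vehicle livers, with no overlap between groups. It fell with AdipoRonPEG5 against vehicle (-1.91 ± 0.21, edgeR BH-adjusted p = 0.000423), with AdipoRon against vehicle (-0.84 ± 0.21, adjusted p = 0.0431) and between the compounds (-1.07 ± 0.21, adjusted p = 0.0175). The AdipoRon call ended in 7 alternatives (adjusted p from 0.0577 to 0.136), without any 1 of the vehicle or AdipoRon livers or AdipoRonPEG5 2. That between the compounds ended without AdipoRon 1, AdipoRon 3, AdipoRonPEG5 1 or 2 (adjusted p from 0.0519 to 0.0773).

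Per1, a clock gene, and Tat, a tyrosine-degrading enzyme, fell in AdipoRonPEG5 livers relative to vehicle livers (log2 fold change -1.13 ± 0.15 and -1.92 ± 0.35, edgeR BH-adjusted p = 0.00114 and 0.00437). Both also fell against AdipoRon, Per1 by -0.62 ± 0.15 (adjusted p = 0.0429) and Tat by -1.37 ± 0.34 (adjusted p = 0.0436). The Per1 call against AdipoRon ended in 8 alternatives, among them without vehicle 2, AdipoRonPEG5 1, AdipoRonPEG5 2 or any 1 of the AdipoRon livers (adjusted p from 0.0546 to 0.14). The Tat call against AdipoRon was not followed over the alternatives. Tat was at 462, 683 and 951 CPM in AdipoRonPEG5 livers and at 2880, 1159 and 1397 CPM in AdipoRon livers. Klf9, a Krueppel-like factor, and Nr3c1, the glucocorticoid receptor itself, rose with AdipoRon (0.81 ± 0.13 and 0.40 ± 0.086, adjusted p = 0.00805 and 0.0268). With AdipoRonPEG5 against vehicle Klf9 rose too (0.49 ± 0.13, adjusted p = 0.026), a call not followed over the alternatives, and Nr3c1 did not pass (0.087 ± 0.087, adjusted p = 0.534). The Nr3c1 call ended without vehicle 1, vehicle 2, AdipoRon 2 or AdipoRon 3 (adjusted p from 0.0747 to 0.0975), and with only the 2 compared groups fitted (0.0669). Mt2, a metallothionein, was at 685, 148 and 80.1 CPM in AdipoRonPEG5 livers, at 27.0, 9.22 and 25.1 CPM in AdipoRon livers and at 24.8, 35.2 and 37.1 CPM in vehicle livers. It rose with AdipoRonPEG5 against vehicle (3.24 ± 0.69, adjusted p = 0.00983) and between the compounds (3.90 ± 0.72, adjusted p = 0.0145), and the log2 fold change between the compounds was 2.49 without AdipoRonPEG5 1. The Mt2 call against vehicle was not followed over the alternatives.

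Of 10 FOXO1 and insulin-regulated genes, 4 fell in AdipoRonPEG5 against vehicle livers, with a median log2 fold change of -0.60, and the others did not pass. There 7.63% of all genes tested were called lower. Pck1, a gluconeogenic enzyme, and Srebf1, a lipogenic transcription factor, fell against vehicle (-1.39 ± 0.28 and -0.68 ± 0.16, edgeR BH-adjusted p = 0.0073 and 0.0159). The Srebf1 call ended without AdipoRonPEG5 1 or 2 (adjusted p from 0.0506 to 0.0603). Between the compounds 1 of the 10 fell (median -0.45), where 2.71% of all genes were called lower. With AdipoRon, where 5.2% of all genes were called, edgeR, DESeq2 and limma-voom each called 0 of the 10, and 2 had an unadjusted p under 0.05 (median 0.015).

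Lists for neighbouring pathways held 2 calls each in AdipoRonPEG5 against vehicle livers, where 17.2% of all genes were called. Of 16 PPAR-alpha targets, Ehhadh, a peroxisomal oxidation enzyme, rose and Angptl4, an inhibitor of lipoprotein lipase, fell in AdipoRonPEG5 against vehicle livers (log2 fold change 0.77 ± 0.23 and -0.82 ± 0.18, edgeR BH-adjusted p = 0.0383 and 0.00984; median 0.12). The Ehhadh call ended without vehicle 2 or any 1 of the AdipoRonPEG5 livers (adjusted p from 0.051 to 0.137), and with the replicate block (0.0797). Of 17 STAT3 and acute phase targets, Il1rn, which blocks the interleukin-1 receptor, rose and Il6ra, the interleukin-6 receptor, fell (1.21 ± 0.37 and -0.68 ± 0.19, adjusted p = 0.0468 and 0.0305; median -0.017). The Il1rn call ended in 9 alternatives (adjusted p from 0.0511 to 0.163), among them without vehicle 2, vehicle 3, AdipoRon 3 or any 1 of the AdipoRonPEG5 livers. The Il6ra call ended in 7 (adjusted p from 0.052 to 0.105), among them without vehicle 1, vehicle 2, AdipoRonPEG5 1 or AdipoRonPEG5 2. Il6ra was also the 1 call of that list between the compounds, where 5.39% of all genes were called, lower against AdipoRon (-0.76 ± 0.19, adjusted p = 0.0424). This call ended in 8 alternatives (adjusted p from 0.0545 to 0.139), among them without vehicle 2, AdipoRon 1 (-0.49) or 3, or any 1 of the AdipoRonPEG5 livers.

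Of 10 ErbB family, ligand and feedback genes, 2 rose in AdipoRonPEG5 against vehicle livers (median log2 fold change 0.052), and the others did not pass. One was the EGFR ligand Tgfa (0.49 ± 0.14, edgeR BH-adjusted p = 0.0312), whose call ended without any 1 of the vehicle livers, AdipoRonPEG5 2 or 3 (adjusted p from 0.0539 to 0.111). The other was the EGFR ligand Hbegf (1.32, adjusted p = 0.0254), under the level set for named genes and named because it is 1 of 2. The Hbegf call was not followed over the alternatives. In AdipoRon against vehicle livers, where 5.2% of all genes were called, edgeR and limma-voom called 0 genes of the PPAR-alpha, STAT3 and ErbB lists. Of their genes 1, 2 and 2 had an unadjusted p under 0.05, and DESeq2 called 1 gene, on the ErbB list (medians -0.070, -0.33 and 0.18). Between the compounds, where 5.39% of all genes were called, edgeR called 0 of the PPAR-alpha list. Of its genes 5 had an unadjusted p under 0.05, DESeq2 called 3 and limma-voom 0. On the ErbB list edgeR called 0 there, 3 had an unadjusted p under 0.05, DESeq2 called 1 and limma-voom 0 (medians 0.24 for PPAR-alpha, 0.69 for STAT3 and -0.20 for ErbB).

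Of 8907 genes with a mean of at least 5 CPM, those most like Bcl6 by Pearson correlation of log2 CPM over the 9 libraries were Banp (r = 0.984, and 0.859 with group means removed), Piga (0.983 and 0.767), Zbtb40 (0.981 and 0.760), Nr1d1 (0.980 and 0.926) and Slc20a1 (0.978 and 0.887). Nr1d1, a heme receptor of the circadian clock, was at 31.0, 24.7 and 21.3 CPM in AdipoRonPEG5 livers, at 50.3, 35.9 and 27.1 CPM in AdipoRon livers and at 61.4, 63.0 and 73.9 CPM in vehicle livers. In each compound group, liver 1 had the most Bcl6 and the most Nr1d1. Genes most opposite to Bcl6 were mt-Nd1, a mitochondrially encoded subunit of complex I (r = -0.969, and -0.636 with group means removed), Serpinb6a (-0.967 and -0.543) and Zfp316 (-0.967 and -0.754). All these genes share the libraries and the group differences with Bcl6, and the correlations are a description.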

How the data were processed

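The authors deposited 1 table with raw read counts per gene for 9 libraries and, beside them, FPKM that equal the count divided by a gene length and the library total. The submitters' processing notes name HTSeq 0.6.1, STAR 2.5, TopHat, edgeR and DESeq2 without saying what each did; build, annotation, strand setting and read filters are not given in the sources used here. Counts were used for every test, and the deposited FPKM only for levels between genes.

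R 4.3.3 with edgeR 4.0.16 fitted all 9 libraries (TMM, filterByExpr, quasi-likelihood F test, 3 group means, no replicate block). The call threshold was 0.05 after Benjamini-Hochberg adjustment over 13151 genes, and values after ± beside a log2 fold change are standard errors. Alternatives used DESeq2 1.42.0, limma 3.58.1 (voom), other scalings and filters, a replicate block, 2 groups only, and libraries left out. The code was tested on simulated data. Intervals are at the 95% level, and log2 CPM for correlations used a prior count of 2.

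The 10 genes, the lists, the alternatives and the naming rule were chosen with earlier results of these data known. Named list genes were up to 3 called genes a list by lowest p with a mean of at least 1 CPM; some genes that this rule named are not reported here. For genes like Bcl6 or opposite to it, unnamed models were passed over. Promoter sequences came from RefSeq (GRCm38.p6). Of the marker and list symbols, Adgre1 was found as Emr1; Cml4 and Tf were not matched. Replicate numbers were not used to pair samples, and the labels do not say whether they do. The labels do not say that libraries of a group came from separate animals, so the p-values measure the spread between these libraries, which may be technical.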

Additional observations from a re-analysis of the deposited data

How the results depend on the processing

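Over 18 alternatives the log2 fold changes of Bcl6, Cish and Socs2 in AdipoRonPEG5 against vehicle livers and of Bcl6 and Cish in AdipoRon against vehicle livers kept their sign, and Cish passed the test with AdipoRon in each. Leaving out 1 library at a time gave 1337 to 2334 called genes in AdipoRonPEG5 against vehicle livers (2260 with all libraries), 250 to 624 in AdipoRon against vehicle livers (684) and 233 to 1032 between the compounds (709). Counts moved by over 1.5 times without vehicle 2, AdipoRonPEG5 2 or 3 in the first comparison (1337, 1348 and 1438), without vehicle 1 or 2, AdipoRon 1 or 2, or AdipoRonPEG5 2 in the second (250 to 450), and without any 1 AdipoRonPEG5 or AdipoRon liver in the third (233 to 415). With the replicate number as a block the counts were 1763, 444 and 338 genes, and with only the compared groups fitted 325 genes were called in AdipoRon against vehicle livers. Same-numbered libraries did not deviate together (r from -0.268 to 0.077, against -0.299 to 0.316 for other pairs). With 3 libraries a group such correlations cannot exclude a pairing, so whether the numbers pair the livers is not known. Cish kept its call with AdipoRon under the block. Some signs turned, in genes that did not pass. In AdipoRon against vehicle livers total-count scaling gave 0.056 for Stat5b and 0.039 for Ghr, and that scaling moved the median of all genes by 0.10 there. Ghr lay between -0.17 and 0.0021 with 1 library left out, and Socs3 between the compounds between -0.35 and 0.24. The causes were not tested. With 3 libraries a group small changes of genes such as Jak2 and Stat5a lie within the intervals given. Depth limits Cux2 and the female-biased genes under the filter.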
